A study of Mus musculus with 3 samples.

Results

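The genes of the mitochondrial respiratory chain and ATP synthase were taken from the gene table by symbol: every row starting with mt-Nd, mt-Co, mt-Cyt, mt-Atp, Nduf, Uqcr, Sdha, Sdhb, Sdhc, Sdhd or Atp5, and Cox4 to Cox8 with their suffixes, without Cox8b and pseudogenes. This gave 109 of 31058 rows, of which 13 are encoded by the mitochondrial genome and 96 by nuclear chromosomes. The nuclear-encoded rows comprise 75 subunits, 7 tissue isoforms of subunits and 14 assembly or related factors, and 1 symbol, Atp5o, stands under 2 gene IDs, of which the second held almost no UMIs. The data are droplet counts of 3′ RNA tags (UMIs, 1 per captured molecule) from cells of mouse glomeruli, the filtering units of the kidney. There were 3 libraries, each from 1 healthy C57Bl/6 mouse (n = 1 per group): a male, a female, and a female that also carried ERalphaKO, a knockout of oestrogen receptor alpha (female ERaKO). Its title assigns the knockout to RPC, an abbreviation the labels do not spell out, so it need not apply to all cells. The transgenes Pax2.rtTA and TetO.Cre and the R26.Confetti allele were present in all 3, so that doxycycline, given here at 20 days of age, switches on Cre and a colour reporter in cells that express Pax2, and all were followed to 90 days. With 1 mouse in each group, sex and genotype cannot be told apart from other differences between mice or preparations, no difference between groups has a replicate check, and no p-value is given.

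The respiratory chain sits in the inner mitochondrial membrane. Complex I (NADH dehydrogenase) and complex II (succinate dehydrogenase) pass electrons to ubiquinone, complex III (cytochrome bc1) passes them on to cytochrome c, complex IV (cytochrome c oxidase) hands them to oxygen, and ATP synthase, here complex V, uses the resulting proton gradient. The mitochondrial genome encodes core subunits of complexes I, III, IV and V, and complex II is wholly nuclear-encoded. Proximal tubule, thick ascending limb and acid-secreting intercalated cells of the kidney are known for their many mitochondria, which supply ion transport, while podocytes, whose foot processes cover the capillaries, are regarded as relying more on glycolysis.

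Cells were sorted into classes by clustering and fixed marker lists, and each class name stands for cells resembling that type. Of 4244, 3555 and 3986 barcodes (male, female, female ERaKO; the same order throughout), 3254, 2840 and 2565 passed the filters, at a median of 7354.5, 8837.5 and 8157 UMIs. Barcodes were left out above 25% mitochondrial-encoded UMIs, a filter that acts on the members themselves. It removed 20.97%, 17.7% and 34.0% of barcodes, and barcodes with at least 50% made up 13.1%, 11.4% and 23.4%, so the female ERaKO library stands apart in this measure and values without the maximum are given beside the results it touches. There were 8 classes with at least 30 cells in each library. In the macrophage class several markers of its list were seen in a minority of cells. The complement gene C1qa had UMIs in 10, 4 and 2 of 91, 71 and 54 cells, C1qb in 12, 4 and 3 and C1qc in 11, 5 and 2. Adgre1, also of the list, had UMIs in 29, 25 and 17 cells. The name rests on Lyz2, Cd68 and Csf1r. The targeted gene Esr1 had 5, 3 and 4 UMIs in 1304, 1511 and 896 podocytes, too few to check the label. In proximal tubule cells it had 13, 8 and 70 UMIs in 9, 7 and 42 of 122, 92 and 192 cells, highest in the library labelled ERaKO, so no loss of Esr1 tags was seen there. The labels neither say which part of the gene was deleted nor whether these cells are among the RPC, and female ERaKO is used throughout as the label's name.

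Tubule cells had the highest shares of both sets of respiratory chain genes. The 13 mitochondrial-encoded genes made up 18.9, 19.6 and 20.6% of all UMIs in intercalated cells and 12.3, 15.9 and 14.4% in proximal tubule cells, against 5.44, 5.38 and 6.44% in podocytes. Both tubule classes lay above the other 6 classes in each of the 3 libraries, and among kept cells intercalated cells lay above proximal tubule cells. The nuclear-encoded members, expressed as a share of the UMIs of nuclear-encoded genes so that mitochondrial RNA does not enter the denominator, made up 7.59, 6.43 and 7.36% in intercalated cells, 6.45, 5.92 and 6.82% in proximal tubule cells and 2.97, 3.18 and 3.19% in podocytes. Relative to podocytes of the same library, the log2 ratio in intercalated cells was 1.78 ± 0.09 for the mitochondrial-encoded and 1.19 ± 0.17 for the nuclear-encoded set (mean ± SD over 3 libraries). In proximal tubule cells these values were 1.30 ± 0.23 and 1.04 ± 0.12. Each ratio exceeded its spread between libraries several-fold, and all 3 libraries gave the same direction.

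**Figure D1:**
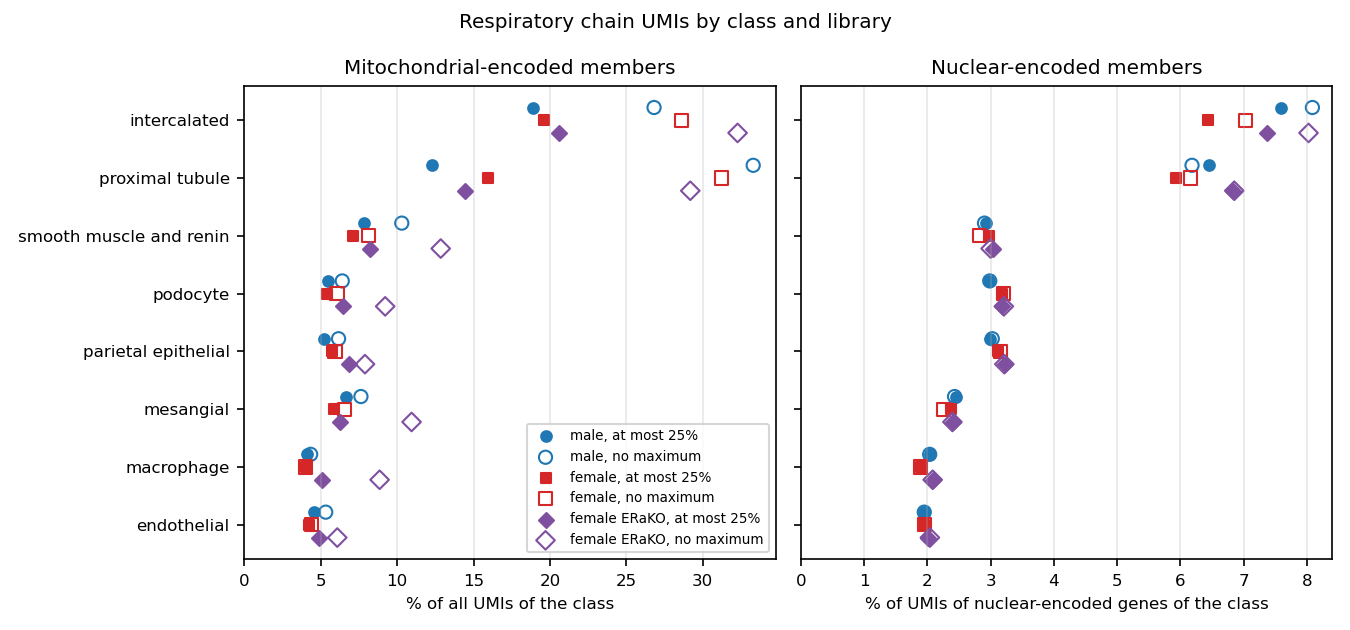
Share of UMIs of the mitochondrial-encoded members (left, % of all UMIs of the class) and of the nuclear-encoded members (right, % of UMIs of nuclear-encoded genes) in 8 cell classes, with 1 point per library; filled symbols use barcodes with at most 25% mitochondrial-encoded UMIs and open symbols a clustering with no such maximum. The 2 tubule classes stand at the right of both panels, and removing the maximum moves the left panel far more than the right one.

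The 2 genomes did not keep a constant ratio across classes. Per UMI of a nuclear-encoded member there were 1.94, 1.79 and 2.16 mitochondrial-encoded UMIs in podocytes and 1.83, 1.96 and 2.27 in parietal epithelial cells, the lining of Bowman's capsule, and 3.07, 3.78 and 3.52 in intercalated cells. Smooth muscle and renin cells, the mural cells of the glomerular arterioles, had 2.90, 2.57 and 2.93, and proximal tubule cells 2.17, 3.20 and 2.47. Without the 25% maximum the ratio was 8.07, 7.37 and 6.02 in proximal tubule cells, 4.53, 5.70 and 5.94 in intercalated cells, 3.96, 3.12 and 4.91 in smooth muscle and renin cells, 3.40, 3.11 and 5.13 in mesangial cells, 2.22, 2.20 and 4.66 in macrophage-class cells and 2.29, 2.01 and 3.16 in podocytes, so proximal tubule cells then lay above intercalated cells. With the maximum, the mitochondrial-encoded share of smooth muscle and renin cells, 7.80, 7.11 and 8.19%, was above that of podocytes in each library (log2 ratio 0.42 ± 0.09), while their nuclear-encoded share, 2.92, 2.98 and 3.04%, was close to it (log2 ratio -0.06 ± 0.03). Mesangial cells, the pericyte-like cells between the capillaries, lay below podocytes in the nuclear-encoded set (2.46, 2.38 and 2.40%, log2 ratio -0.37 ± 0.08) and not in the mitochondrial-encoded one (6.67, 5.87 and 6.24%, 0.12 ± 0.17), where the direction differed between libraries. Endothelial cells had the least or nearly the least of both, with 4.58, 4.22 and 4.88% mitochondrial-encoded and 1.95, 1.95 and 2.01% nuclear-encoded UMIs, and macrophage-class cells were close to them with 4.11, 3.997 and 5.10% and 2.04, 1.89 and 2.09%. In both classes the nuclear-encoded log2 ratio over podocytes (-0.66 ± 0.05 and -0.63 ± 0.11) was further below 0 than the mitochondrial-encoded one (-0.33 ± 0.08 and -0.39 ± 0.05). Parietal epithelial cells matched podocytes within the spread between libraries in both sets (log2 ratios 0.00 ± 0.03 and 0.04 ± 0.09).

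Most nuclear-encoded members were higher in the tubule classes one by one. A member counted as higher or lower if it differed from podocytes by at least 1.5-fold in each of the 3 libraries, among genes with at least 100 summed UMIs. In intercalated cells 61 of 90 members were higher and 0 lower, while 15.9% of all nuclear-encoded genes were higher and 17.0% lower. In proximal tubule cells 62 of 89 were higher and 1 lower, against 15.5% and 35.6% of all genes. The exception was Sdhaf2, the factor that attaches flavin to succinate dehydrogenase, with a log2 ratio of -1.11 ± 0.27. In endothelial cells 0 members were higher and 42 of 89 lower (22.3% and 19.0% of all genes). In macrophage-class cells 0 were higher and 44 of 88 lower, a share near that of all genes (10.4% higher and 39.5% lower). Few members passed in mesangial cells (1 higher and 8 lower of 90; 14.9% and 15.5% of all genes), smooth muscle and renin cells (3 and 5 of 91; 11.8% and 21.1%) and parietal epithelial cells (1 and 2 of 89; 17.1% and 12%). Ndufb4, an accessory subunit of complex I, was lower than in podocytes in all 5 of these non-tubular classes, with log2 ratios from -2.36 ± 0.13 in macrophage-class cells to -0.97 ± 0.07 in parietal epithelial cells.

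**Figure D2:**
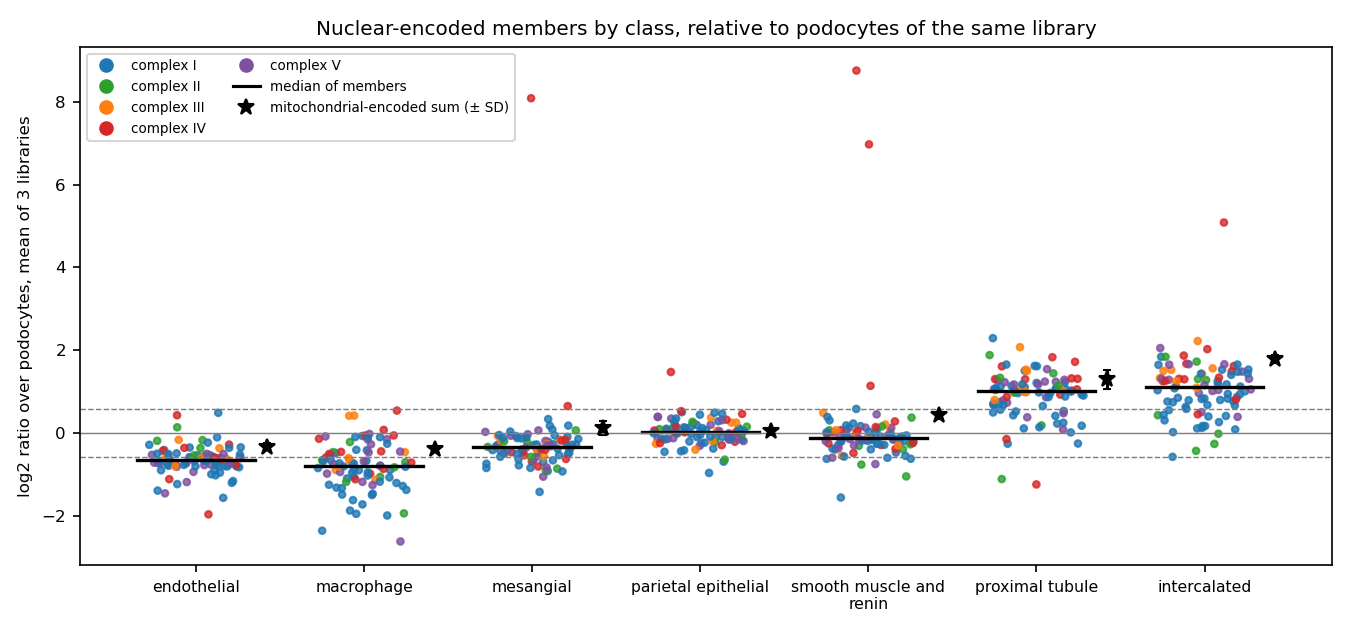
Log2 ratio of each nuclear-encoded member with at least 100 UMIs over podocytes of the same library, averaged over 3 libraries, in 7 cell classes; colours give the complex, horizontal lines the median of members, stars the summed mitochondrial-encoded genes with SD over libraries, and dashed lines 1.5-fold. Members lie mostly above 0 in the 2 tubule classes and mostly below in endothelial and macrophage-class cells, and the points far above the rest are Ndufa4l2, Cox4i2 and Cox7a1.

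The complexes differed in how far they exceeded podocytes. In intercalated cells the summed nuclear-encoded members of complex I had a log2 ratio of 0.81 ± 0.16 over podocytes, those of complex II 1.30 ± 0.17, of complex III 1.47 ± 0.15, of complex IV 1.43 ± 0.18 and of complex V 1.27 ± 0.18. In proximal tubule cells complex I was again lowest, with 0.84 ± 0.12, followed by complex V with 0.99 ± 0.17. The order of the others differed, with 1.30 ± 0.20 for complex II, 1.22 ± 0.19 for complex III and 1.23 ± 0.10 for complex IV. The mitochondrial-encoded subunits of complex I did not share the low value of their nuclear-encoded partners, with 1.83 ± 0.10 in intercalated and 1.44 ± 0.23 in proximal tubule cells, and mt-Cytb, the only mitochondrial-encoded subunit of complex III, had the smallest ratio of the 4 mitochondrial-encoded sums by complex in both (1.496 ± 0.115 and 0.983 ± 0.267).

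Catalytic and structural subunits chosen as representatives were nearly all higher in both tubule classes. Atp5b, the catalytic beta subunit of ATP synthase, had 736, 748 and 814 UMIs per 1000000 nuclear-encoded UMIs (the unit of the levels that follow) in podocytes, 1939, 1563 and 1889 in proximal tubule cells and 2579, 2139 and 2559 in intercalated cells. The 3 libraries of each class lay close together, and no tubule value overlapped a podocyte value. Atp5a1, the alpha subunit, had 592, 594 and 610.5, then 1397, 1213 and 1447, then 2024, 1647 and 1989.9 in the same 3 classes. Sdhb, the iron-sulphur subunit of complex II, was highest in proximal tubule cells instead, with 588, 499 and 648 per 1000000 against 438, 304 and 429 in intercalated cells and 148, 154 and 165 in podocytes. Ndufs1, a core iron-sulphur subunit of complex I, reversed that order again, with 288, 231 and 275 in intercalated, 174, 147 and 156 in proximal tubule cells and 69.9, 68.0 and 81.7 in podocytes. For Ndufv1, the flavin-binding core subunit of complex I, the log2 ratio over podocytes was 0.63 ± 0.35 in intercalated cells, where the female library alone was under 1.5-fold, and 0.90 ± 0.22 in proximal tubule cells. Log2 ratios over podocytes in intercalated and proximal tubule cells were 1.09 ± 0.24 and 0.98 ± 0.12 for Uqcrc1, a core protein of complex III, 1.31 ± 0.19 and 1.30 ± 0.08 for Cox4i1, and 1.87 ± 0.18 and 1.83 ± 0.14 for Cox5a, 2 structural subunits of complex IV.

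Besides 3 isoforms described below, the widest differences between the highest and the lowest of the 8 classes were those of Ndufa12, Ndufs1 and Ndufab1 (complex I), Uqcrfs1 and Uqcr11 (complex III), Cox5a and Ndufa4 (complex IV) and Atp5g1 and Atp5g3 (the membrane ring of ATP synthase). Uqcrfs1, the Rieske iron-sulphur protein, had 668, 551 and 632 per 1000000 in intercalated cells, 651, 469 and 561 in proximal tubule cells and 82.7, 84.4 and 93.0 in endothelial cells. Atp5g3 had 1177, 1066 and 1117 in intercalated and 163, 158 and 165 in endothelial cells, and Atp5g1 1840.0, 1258 and 1666 and 227, 189 and 238. Ndufa12 had 738, 607 and 729 in intercalated and 89.8, 77.8 and 102 in macrophage-class cells, Ndufab1 835, 710.1 and 808 and 104, 115 and 102, and Uqcr11 1491, 1291 and 1427 and 229, 209.9 and 227. Over the 92 nuclear-encoded members with at least 100 UMIs, the ratio of the highest to the lowest class, taken in the library where it was smallest and with 5 UMIs per 1000000 added to both, had a median of 3.75. It was at least 4-fold for 39 members and under 2-fold for 3.

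Large shares of the tubule classes lay above the cap on mitochondrial share. Clustered again without it, 86.4%, 93.7% and 86.8% of the barcodes of the thick limb and distal tubule class lay above 25%, as did 50.4%, 54.2% and 50.3% of proximal tubule and 54.0%, 54.2% and 72.5% of intercalated barcodes, against 1.44%, 0.886% and 3.804% of podocytes and 1.80%, 0.915% and 2.80% of endothelial cells. Clusters left unnamed held 17.2%, 15.5% and 35.8% of the clustered barcodes above 25%, most in the female ERaKO library. The thick limb and distal tubule class had too few kept cells in the female library for the comparisons above. Without the cap it held 332, 189 and 304 barcodes and had the highest levels of both sets. These were 43.5, 47.9 and 43.0% mitochondrial-encoded and 9.38, 9.17 and 8.89% nuclear-encoded UMIs. Its 74 male and 68 female ERaKO kept cells had 13.5 and 14.1% mitochondrial-encoded and 6.03 and 5.17% nuclear-encoded UMIs. In this class both sets were thus lower with the cap. Proximal tubule cells rose to 33.3, 31.2 and 29.2% mitochondrial-encoded UMIs and intercalated cells to 26.8, 28.6 and 32.3%, so the order of these 2 classes turned in the male and female libraries. Their nuclear-encoded shares, 6.18, 6.15 and 6.85% and 8.09, 7.03 and 8.02%, stayed within 1 percentage point of those among kept cells. A stricter cap of 10% on the same clusters turned the mitochondrial-encoded log2 ratio of proximal tubule cells over podocytes from 1.30 to -0.13, while the nuclear-encoded ratio was 1.09. Whether barcodes with a high mitochondrial share are damaged cells or intact cells rich in mitochondria was not tested.

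**Figure D3:**
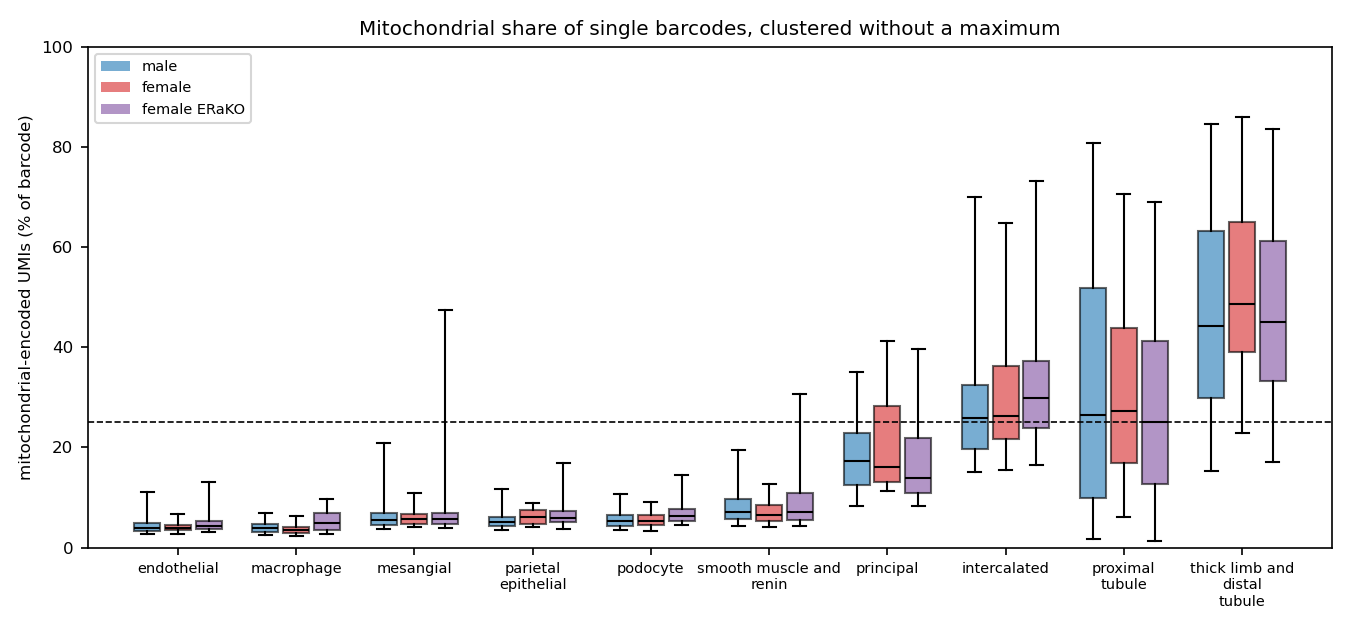
Mitochondrial-encoded share of single barcodes (% of UMIs) in 10 classes from a clustering without a maximum; boxes give quartiles and median, whiskers the 5th and 95th percentiles, colours the library, and the dashed line the 25% maximum. Most thick limb and distal tubule barcodes lie above the line and nearly all podocyte barcodes far below it.

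Within a class, cells with more mitochondrial-encoded RNA did not have uniformly more nuclear-encoded respiratory chain RNA. In podocytes the nuclear-encoded share was 2.97% at 0 to 5% mitochondrial UMIs and 3.02% at 5 to 10% in the male library, 3.12% and 3.28% in the female library and 3.12% and 3.23% in the female ERaKO library. This small rise did not continue at 10 to 15%, where the shares were 2.83, 3.09 and 3.22% over 41, 34 and 35 cells. In proximal tubule cells the course was not monotonic either. The female ERaKO library had 9.40% at 0 to 5% mitochondrial UMIs, 5.66% at 5 to 10%, 7.42% at 25 to 50% and 4.41% above 50%, and the male library had 8.03%, 5.35%, 6.44% and 4.24% in the same bands. In the female library the share rose from 5.18% at 10 to 15% to 6.72% at 25 to 50% and was 5.39% above 50%. UMIs of genes with cytosolic ribosomal protein symbols took 11.9% in the lowest female ERaKO band and 4.43% in the highest, so the nuclear transcriptome of these bands also differed in other respects. Among kept female ERaKO cells, the 38 of the proximal tubule cluster led by Miox and Slc7a13 (below) had values close to this lowest band. These were 3.53% mitochondrial-encoded, 9.34% nuclear-encoded and 12.2% ribosomal UMIs. The part of cluster makeup in the course over bands was not tested. Across cells, again without the maximum, Spearman's rho between the 2 shares (a description over cells of 1 library and class that differ in depth) ranged from 0.01 to 0.13 in podocytes and from 0.29 to 0.45 in smooth muscle and renin cells, and was -0.37, -0.03 and -0.39 in proximal tubule cells. With the maximum the proximal tubule values were -0.15, 0.17 and -0.28, so the sign in the female library turned, and podocytes ranged from 0.04 to 0.19.

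Several subunits of complex IV exist as 2 isoforms, and their use differed by class. Ndufa4l2 is a hypoxia-inducible relative of Ndufa4, a subunit of complex IV. It made up 55.0%, 61.0% and 51.9% of the UMIs of this pair in smooth muscle and renin cells and 45.4%, 40.5% and 48.2% in mesangial cells. Its level was 688, 901 and 653 per 1000000 in the former and 493, 393 and 518 in the latter, against 12, 6 and 6 UMIs in all in podocytes. Over the whole class Ndufa4 itself was lower in smooth muscle and renin cells, with 562, 576 and 604 per 1000000, than in podocytes, with 706, 827 and 750.5. Among mural clusters, Ndufa4l2 was highest in the cluster with the most Rergl, an arteriolar smooth muscle gene, with 1108, 1226 and 1133 per 1000000, and lower in the cluster with Ren1, the renin gene, with 429, 504 and 444, and in the cluster with the most Myh11, smooth muscle myosin, with 296, 309.8 and 336. The mitochondrial-encoded share ran otherwise, with 7.12, 6.26 and 7.34%, 6.69, 6.99 and 6.72% and 10.9, 10.4 and 12.6% in these clusters. Ndufa4 also differed between them, with 421, 446 and 472, then 553, 599 and 548, then 858, 1036 and 952 per 1000000. It was thus above podocytes in the cluster with the most Myh11 and below them in the others.

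Cox4i2, the second form of Cox4i1 that is known from lung and oxygen-sensing cells, accounted for 16.2%, 17.4% and 14.97% of the pair in smooth muscle and renin cells and 3.34%, 2.25% and 2.81% in mesangial cells. Its level was 211, 220.5 and 204 per 1000000 in the first class, while podocytes held 11, 2 and 9 UMIs in all. Cox7a1, the heart and muscle form of Cox7a2, had its highest share of the 8 classes in intercalated cells, 8.56%, 9.55% and 8.62%, and in proximal tubule cells reached 1.602%, 2.55% and 1.21%. Principal cells, the sodium-absorbing cells of the collecting duct, were too few for comparison in the female library and had 9.03% in the male and 8.84% in the female ERaKO library, with intervals that overlap those of intercalated cells. The level of Cox7a1 was 183, 174 and 170.0 per 1000000 in intercalated cells and 4.09, 4.29 and 4.24 in podocytes. In smooth muscle and renin cells Cox7a1 had 9, 7 and 6 UMIs. Cox6b2, known as the testis form of Cox6b1, made up 7.11%, 9.32% and 4.53% of its pair in parietal epithelial cells. In smooth muscle and renin cells it made up 5.99%, 6.16% and 7.73%, and in podocytes 2.68%, 2.09% and 2.90%. Fibroblast-class cells, too few for comparison in the female library, had 14.6% in the male and 14.2% in the female ERaKO library, on 15 and 19 UMIs. The level of Cox6b2 was 48.3, 62.5 and 32.1 per 1000000 in parietal epithelial cells, 33.2, 34.6 and 41.5 in smooth muscle and renin cells and 16.3, 13.2 and 18.8 in podocytes. Its partner Cox6b1 had 591, 615 and 630.5 in podocytes. Whether single cells hold both forms or neighbouring RNA contributes to low counts was not tested.

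**Figure D4:**
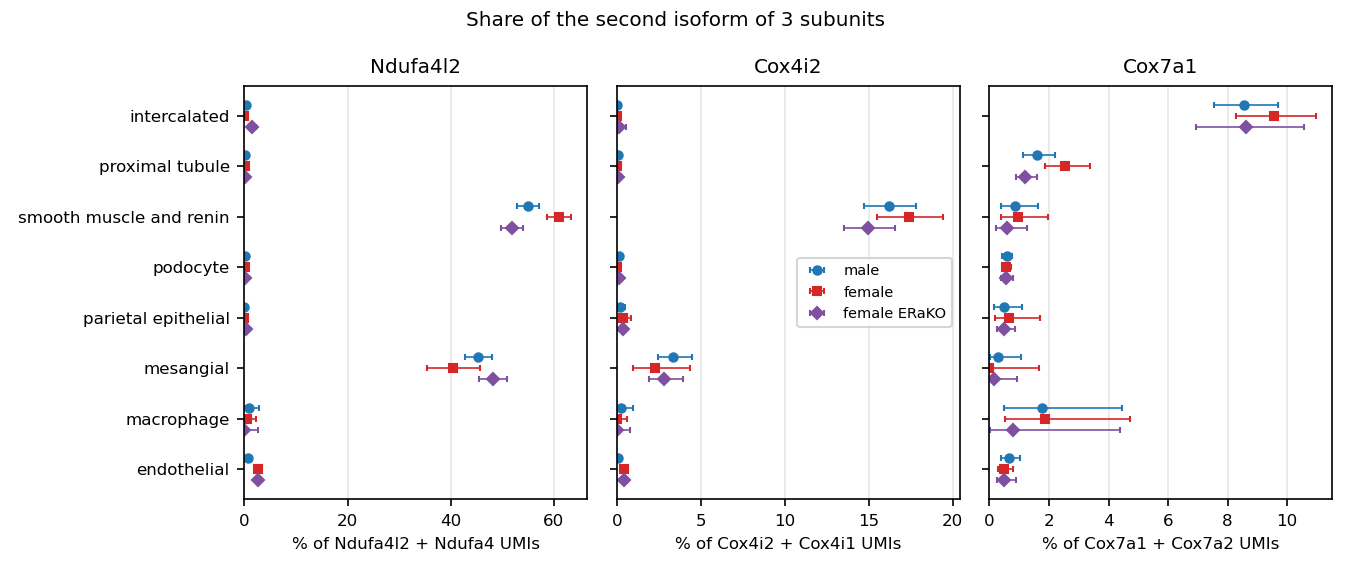
Share of the second isoform in the UMIs of 3 subunit pairs (% of the sum of both genes) by class, with 1 point per library and exact 95% binomial intervals that cover counting error only. Ndufa4l2 and Cox4i2 stand out in smooth muscle and renin cells and in mesangial cells, Cox7a1 in intercalated cells.

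Upstream sequences are shown for Cox7a1 and Cox7a2, whose use differed between classes, and for Atp5k, which was lower than in the female library in every class in both comparisons (below), and Cox6a1, which hold motifs known from respiratory chain promoters. The 180 bases before the RefSeq start of each gene follow, 5′ to 3′ on the gene's strand, on GRCm38.p6, with letters of the motifs below in capitals. The GENCODE M21 starts lie further upstream, at 30184144 (Cox7a1), 79759878 (Cox7a2), 115348981 (Cox6a1) and 108434448 (Atp5k). The last printed bases of each window thus fall inside the GENCODE gene.
Cox7a1 (chr7:30183991-30184170, + strand): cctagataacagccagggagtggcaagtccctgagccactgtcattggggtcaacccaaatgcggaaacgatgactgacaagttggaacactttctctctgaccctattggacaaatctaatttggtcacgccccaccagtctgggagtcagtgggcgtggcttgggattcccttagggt
Cox7a2 (chr9:79759854-79760033, - strand): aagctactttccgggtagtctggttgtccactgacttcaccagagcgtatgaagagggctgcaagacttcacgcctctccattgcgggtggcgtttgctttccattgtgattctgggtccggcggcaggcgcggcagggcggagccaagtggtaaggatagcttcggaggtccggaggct
Cox6a1 (chr5:115348959-115349138, - strand): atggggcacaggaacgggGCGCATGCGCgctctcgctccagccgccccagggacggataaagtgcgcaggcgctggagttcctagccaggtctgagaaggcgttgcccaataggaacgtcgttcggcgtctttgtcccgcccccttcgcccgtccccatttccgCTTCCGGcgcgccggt
Atp5k (chr5:108434400-108434579, - strand): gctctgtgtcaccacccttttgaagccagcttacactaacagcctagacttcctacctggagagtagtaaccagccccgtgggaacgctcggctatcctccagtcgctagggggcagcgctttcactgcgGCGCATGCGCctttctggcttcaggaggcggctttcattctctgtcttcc
Windows from 250 bases before to 50 after the start were given for 77 of the 95 nuclear-encoded symbols. The NRF1 motif, the first capitals in Cox6a1 and the only ones in Atp5k, stood on either strand in windows of 7 members (9.09%) and 1.07% of all 27025 symbols with such a window. CCGGAAG, letters of ETS factors such as GABPA, seen from the other strand as CTTCCGG in Cox6a1, stood in windows of 21 members (27.3%) and 9.93% of all. A YY1 motif stood in windows of 5 members (6.49%) and 0.755% of all. The motifs do not overlap each other in the 2 sequences with capitals, and the Atp5k window also held CCGGAAG after the RefSeq start, outside the printed bases. By the GENCODE starts, CTTCCGG of Cox6a1 and most of the Atp5k NRF1 motif lie inside the gene. None of the 3 was in either Cox7a window, which says only that these exact letters are absent there.

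Most mitochondrial-encoded UMIs came from 5 genes. Over 24 combinations of 8 classes and 3 libraries, the median share was 19.6% for mt-Co3, 18.2% for mt-Atp6, 14.4% for mt-Co2, 14.0% for mt-Co1 and 11.1% for mt-Cytb. The complex I genes mt-Nd2, mt-Nd4 and mt-Nd1 followed with 7.11%, 6.59% and 5.32%, then mt-Nd3 with 1.73%, mt-Nd5 with 1.42%, mt-Nd4l with 0.705% and mt-Atp8 with 0.193%. These are shares of UMIs and were not scaled to length. The lowest was mt-Nd6 with 0.0996%, the only member transcribed from the other strand of the mitochondrial genome (13552 to 14070, GRCm38). The shares with the widest relative range were those of mt-Nd6 (0.0320% to 0.222%) and mt-Atp8 (0.123% to 0.441%), the tightest that of mt-Co3 (17.1% to 20.6%). The fraction of mt-Cytb was lowest in macrophage-class cells (7.51%) and highest in podocytes (12.9%).

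Small mitochondrial genes share bases with their neighbours, which limits how their UMIs can be assigned. mt-Atp8 and mt-Atp6 lie on 1 transcript and overlap by 43 bases, mt-Nd4l and mt-Nd4 by 7 bases, and mt-Nd5 and mt-Nd6 by 14 bases on opposite strands. The sequences of 2 short genes that differed between libraries in every class (below) are printed from the GENCODE M21 transcripts, 5′ to 3′, with the bases that also belong to the next gene in capitals.
mt-Atp8 (chrM:7766-7969, + strand): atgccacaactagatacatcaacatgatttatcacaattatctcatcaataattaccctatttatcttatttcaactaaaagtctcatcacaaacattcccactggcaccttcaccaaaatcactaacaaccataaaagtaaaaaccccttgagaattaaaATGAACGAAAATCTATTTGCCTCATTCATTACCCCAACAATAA
mt-Nd4l (chrM:9877-10173, + strand): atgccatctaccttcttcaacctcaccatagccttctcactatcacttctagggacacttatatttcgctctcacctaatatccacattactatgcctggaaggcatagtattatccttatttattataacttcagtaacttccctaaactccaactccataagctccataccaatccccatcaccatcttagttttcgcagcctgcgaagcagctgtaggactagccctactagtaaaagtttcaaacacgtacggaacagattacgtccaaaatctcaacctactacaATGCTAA
The longest run of A in mt-Atp8 is 5 bases and in mt-Nd4l 4 bases, within the range of 3 to 8 over the 13 genes.

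The libraries were then compared within each class, setting the male and then the female ERaKO library against the female one. Both comparisons share the female library. In podocytes the mitochondrial-encoded share was 5.44, 5.38 and 6.44%, so that the male and female values were nearly equal (log2 ratio 0.01, exact 95% interval 0.01 to 0.02) and the female ERaKO value was higher (log2 ratio 0.26, 0.25 to 0.26). These intervals, from 11883254, 17510913 and 8060651 UMIs, cover counting error only. The female ERaKO library was above the female one in each of the 5 podocyte clusters, from 4.83% to 5.43% in the cluster led by Cst12 and from 4.65% to 6.17% in the cluster led by Gas1. Without the 25% maximum the shares were 6.40, 6.06 and 9.21%. The nuclear-encoded share was 2.97, 3.18 and 3.19%. It was slightly lower in the male than in the female library (log2 ratio -0.10, -0.10 to -0.09). The female ERaKO library hardly differed from the female one (0.004, -0.003 to 0.011). The median log2 ratio of 91 nuclear-encoded members was -0.08 in male podocytes, with 72 below 0 and 19 above, and 0.03 in female ERaKO podocytes, with 35 below and 56 above. The medians of all nuclear-encoded genes were 0.02 and 0.02. RNA of other cells also differed between the libraries: 8 proximal tubule markers summed to 93.7, 38.5 and 139 per 1000000 in podocytes, and its part in these values was not tested.

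Few single nuclear-encoded members differed between libraries in podocytes. In the male library 0 of 90 members were at least 1.5-fold higher and 2 lower, where 1.11% of all nuclear-encoded genes were higher and 1.11% lower. The 2 were Atp5k, a small subunit of the membrane part of ATP synthase (log2 ratio -0.71, -0.78 to -0.65), and Ndufa3, an accessory subunit of complex I (-0.60, -0.69 to -0.52). In the female ERaKO library 0 of 90 were higher and only Atp5k was lower (-0.61, -0.69 to -0.54), where 2.09% and 2.11% of all genes were. Atp5k had 246, 403 and 263 UMIs per 1000000 in podocytes and Ndufa3 142, 216 and 146. In both the female library was high and the other 2 nearly equal. The highest ratio in both comparisons was that of Cox6b2 (0.29 and 0.49), which was under 1.5-fold. Of glycolytic genes 1 of 14 was higher in the female ERaKO library, Pkm, a pyruvate kinase. Citrate cycle genes had 0 of 16 members past 1.5-fold in either comparison, and the mitochondrial ribosome 0 of 77. Of assembly factors outside the symbol rule, 1 of 33 was lower in both, Cox17, a copper carrier for complex IV. Genes with cytosolic ribosomal protein symbols departed more, with 8 of 89 lower and 0 higher in the male library. In the female ERaKO library 5 of 89 were lower (Rps27, Rpl10-ps3, Rps27rt, Rpl38 and Rps29, all also lower in the male one) and 1 higher.

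The higher mitochondrial-encoded share of the female ERaKO library was seen in 7 of the 8 classes. The log2 ratio to the female library was 0.25 (0.24 to 0.27) in parietal epithelial, 0.21 (0.20 to 0.22) in endothelial, 0.20 (0.19 to 0.22) in smooth muscle and renin, 0.09 (0.07 to 0.11) in mesangial and 0.07 (0.06 to 0.08) in intercalated cells. In macrophage-class cells it was 0.35 (0.32 to 0.38), but there Csf1r had UMIs in 76.9%, 83.1% and 55.6% of cells and endothelial markers summed to 156, 2032 and 1032 per 1000000, so the makeup of the class differed between libraries, and the part of this was not tested. Proximal tubule cells went the other way (-0.14, -0.15 to -0.14), and with a maximum of 10% so did mesangial cells (-0.04). The median log2 ratio of nuclear-encoded members was above 0 in all 8 classes in this comparison, from 0.03 in podocytes to 0.23 in proximal tubule cells, although with TMM scaling the podocyte median and with a 10% maximum that of smooth muscle and renin cells fell just under 0. Of 81 members with at least 20 UMIs in every class, 25 were higher in the female ERaKO library in all 8 classes (30.9%, against 4.66% of 4783 nuclear-encoded genes) and 4 were lower in all 8 (4.94% against 3.83%). Among the 25 were Ndufs3 and Ndufs7, core subunits of complex I, Sdhc of complex II, Uqcrc1 and Uqcrc2 of complex III, Cox4i1 and Cox5b of complex IV and Atp5g1 and Atp5d of ATP synthase. Their sizes were small, with a median over classes of 0.44 for Ndufs7 and 0.17 for Cox4i1. In the male library 8 of 81 were higher than female in all 8 classes (9.88% against 2.04%), namely Sdhc, Ndufs3, Cox6a1, Atp5d, Ndufs7, Ndufb7, Cox4i1 and Ndufv3, and 3 lower (3.70% against 2.12%). The background genes were not matched to the members in UMI counts, on which the steadiness of a sign also depends. The libraries also differed in depth and in the share of barcodes above the maximum. The part of any of these in these directions and shares was not tested.

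Between male and female libraries the mitochondrial-encoded share was higher in male mesangial (0.18, 0.16 to 0.20), smooth muscle and renin (0.13, 0.12 to 0.15), endothelial (0.12, 0.11 to 0.12) and macrophage-class cells (0.04, 0.02 to 0.07), close to equal in podocytes and lower in intercalated (-0.05, -0.06 to -0.04), parietal epithelial (-0.14, -0.16 to -0.13) and proximal tubule cells (-0.38, -0.38 to -0.37). These signs depended on the maximum: with one of 10% the mesangial and endothelial ratios were -0.09 and -0.05, without one the parietal epithelial and proximal tubule ratios were 0.06 and 0.09, and with each cell assigned by its own marker score the macrophage-class ratio was -0.03. The nuclear-encoded members of intercalated cells had a median log2 ratio of 0.24 in the male library, with 80 of 90 above 0, and 0.20 in the female ERaKO library, with 77 of 90 above 0, beside medians of -0.06 and -0.05 for all nuclear-encoded genes. Markers of principal cells summed to 2599.7, 5473 and 2516 per 1000000 in this class and its own markers to 9243, 6534 and 8083, so the female cells held the most principal-cell RNA and the least of their own markers, and the part of this was not tested. These values rest on 64, 33 and 30 cells.

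Proximal tubule cells showed opposite signs in the 2 sets. Their mitochondrial-encoded share was 12.3, 15.9 and 14.4%, lowest in the male library, and their nuclear-encoded share 6.45, 5.92 and 6.82%, lowest in the female library. The class was made of different clusters in the libraries. The cluster led by Miox and Slc7a13 held 98, 3 and 38 cells, the one led by G6pc and Slc34a1, of the convoluted segment, 23, 49 and 67, and the one led by Slc7a12 1, 40 and 87. The first cluster had 10.9% mitochondrial-encoded UMIs in the male and 3.53% in the female ERaKO library, and 6.47% and 9.34% nuclear-encoded UMIs. Within the second cluster, present in all 3 libraries, the mitochondrial-encoded share was 15.9, 14.5 and 14.0% and the nuclear-encoded share 6.36, 5.58 and 5.49%, so there the male library was highest in both sets. Without the 25% maximum the mitochondrial log2 ratio of male over female proximal tubule cells was 0.09. Sex cannot be told apart from this difference in cluster makeup.

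Members past 1.5-fold in other classes were few. In endothelial cells Ndufa4l2 (log2 ratio -1.67, 25, 103 and 72 UMIs) and Atp5k (-0.62) were lower in the male library, 2 of 88 (1.51% of all genes), and Atp5k (-0.75) in the female ERaKO library, 1 of 88 (2.65%), while 0 were higher in either (1.22% and 2.56% of all genes). Summed markers of smooth muscle and renin cells, the class rich in Ndufa4l2, were 138, 197 and 877 per 1000000 in endothelial cells, also lowest in the male library, and their part was not tested. In proximal tubule cells Atp5o, the stalk subunit of ATP synthase (0.61), and Ndufa11 (0.60) were higher and Ndufb8 (-0.65) lower in the male library, with 14.7% and 9.53% of all genes past 1.5-fold, and Ndufaf6, an assembly factor of complex I, was higher in the female ERaKO library (0.63; 4.72% of all genes) and 0 were lower (6.68%). In male intercalated cells 0 of 81 were higher (3.98%) or lower (6.20%). In female ERaKO intercalated cells 5 of 80 were higher (4.88% of all genes), namely Ndufb7 (0.90), Ndufs8 (0.89), Ndufv1 (0.79), Ndufaf3 and Ndufaf8, all of complex I, and Sdhaf4 was lower (-0.65; 9.25%). In intercalated cells these 6 rest on 28 to 395 UMIs a library.

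In mesangial cells Cox5b (0.65 and 0.64) was higher in the male and the female ERaKO library, and Sdhd, the membrane anchor of complex II (-0.79 and -0.76), and Atp5k (-0.80 and -0.75) were lower. Members called there were 2 higher (4.83% of all genes) and 2 lower (2.03%) of 78 in the male, and 4 (5.53%) and 2 (2.39%) of 76 in the female ERaKO library, over 45 female cells. In smooth muscle and renin cells Atp5o was higher in the female ERaKO library (0.70, 1 of 83; 3.45% of all genes, with 0 lower against 6.12%) and Atp5k lower in the male one (-0.69, 1 of 82; 2.57%, with 0 higher against 3.24%). In macrophage-class cells 2 of 70 were higher (3.11%) and 2 lower (8.27%) in the male library, with Atp5o (0.83) and Uqcrc1 (0.82) above and Ndufa3 (-0.82) and Atp5k (-0.82) below. In the female ERaKO library 6 of 62 were higher (3.67%), led by Uqcrfs1 (0.76) and Ndufs6 (0.75), and 2 lower (9.99%). In parietal epithelial cells Atp5k was lower in both (-0.73 and -0.59), 1 of 83 in the male (2.09%) and, with Cox6b2 (-0.94), 2 of 86 in the female ERaKO library (2.63%), and 0 were higher in either (5.41% and 6.30% of all genes).

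Among the members, a few short genes set the female library apart in every class, in both genomes. mt-Atp8 had 89.7, 185 and 89.2 UMIs per 1000000 of all UMIs in podocytes, 97.6, 179.6 and 89.3 in endothelial cells and 286, 586 and 244 in proximal tubule cells, each time highest in the female library. Its log2 ratio ranged over the 8 classes from -1.33 to -0.59 in the male and from -1.31 to -0.83 in the female ERaKO library. For mt-Nd3 these ranges were -0.81 to -0.40 and -0.87 to -0.26, for mt-Nd4l -0.98 to -0.13 and -1.12 to -0.44. mt-Nd5 and mt-Nd6 were lower in all 8 classes in the female ERaKO library and in 6 of 8 in the male one. mt-Nd5, of 1824 bases, is not short, and was almost level in female ERaKO macrophage-class cells. By contrast mt-Nd1, mt-Co1 and mt-Co2 were higher in all 8 classes in the female ERaKO library, with ranges of 0.14 to 0.55, 0.03 to 0.33 and 0.04 to 0.38, so in that library 3 of the 13 genes were higher and 5 lower in every class. mt-Co3, mt-Cytb and mt-Atp6 were higher in 7 classes and mt-Nd2 and mt-Nd4 in 6.

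The nuclear-encoded members that were lower in all 8 classes in both comparisons were Atp5k (-0.82 to -0.31 and -0.75 to -0.36), Ndufa3 (-0.82 to -0.10 and -0.70 to -0.24) and Ndufa1 (-0.46 to -0.24 and -0.43 to -0.21), another small subunit of complex I. As both comparisons use the female library, a high value there alone would give this pattern. Nuclear-encoded genes with a longest transcript under 600 bases also had medians below 0. In podocytes the median male over female log2 ratio of all nuclear-encoded genes was -0.14 for longest transcripts under 600 bases and 0.09 for those of 4000 bases or more, and the female ERaKO over female medians were -0.13 and 0.01. In endothelial cells these were -0.12 and 0.01, then -0.04 and 0.02. The female ERaKO medians did not rise steadily with length, since those of genes of 1000 to 2000 bases were 0.02 in podocytes and 0.08 in endothelial cells, above those of genes of 4000 bases or more. Members under 600 bases had medians of -0.08 and -0.08 in these classes in the male and 0.004 and 0.006 in the female ERaKO library. In the latter Cox8a, of 550 bases, was higher in all 8 classes, and Atp5e, of 1697 bases, was lower in all 8. The podocyte log2 ratios of mt-Atp8, Atp5k and Ndufa3 were further below 0 than these medians, but these genes were named for their low ratios. The lower quartile of all nuclear-encoded genes under 600 bases in podocytes was -0.45 in the male and -0.42 in the female ERaKO library. Ndufa3, of 782 bases, lies outside that length range. The part of transcript or fragment length in the ratios of these genes was not tested.

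**Figure D5:**
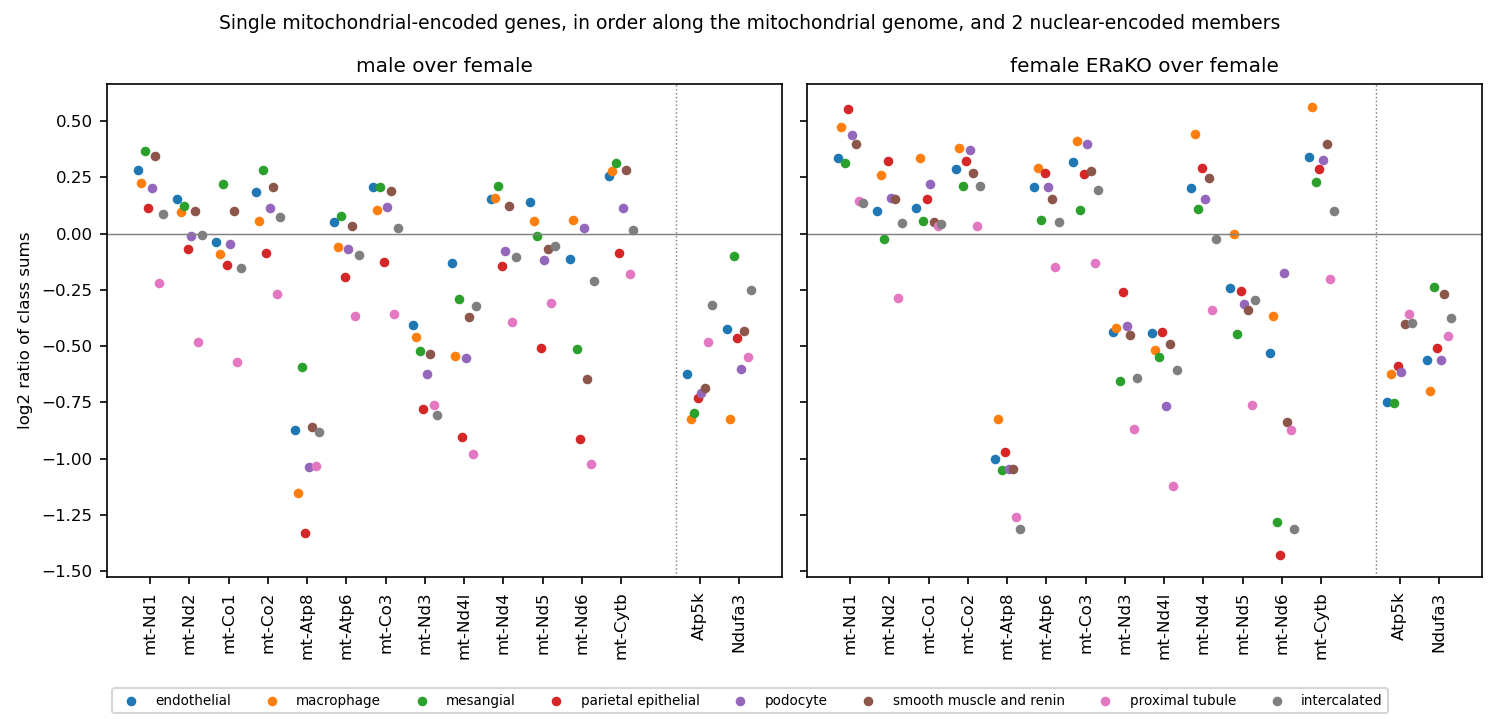
Log2 ratio of class sums, male over female (left) and female ERaKO over female (right), for the 13 mitochondrial-encoded genes in their order along the mitochondrial genome and for Atp5k and Ndufa3, with 1 point for each of 8 classes. mt-Atp8, mt-Nd3 and mt-Nd4l lie below 0 in all classes of both panels, as do Atp5k and Ndufa3, and mt-Nd1 lies above 0 in all classes of the right panel.

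Other genes of energy metabolism were read from fixed lists by the same rule of 1.5-fold over podocytes in all 3 libraries. Citrate cycle genes were higher for 14 of 16 in intercalated and 13 of 16 in proximal tubule cells, with median log2 ratios of 1.52 and 1.03. Glycolytic genes were higher for 14 of 14 in intercalated cells (median 1.55) and 7 of 14 in proximal tubule cells (0.78), where 1 was lower. Genes of the mitochondrial ribosome, which translates the 13 mitochondrial messages, did not follow to that degree, with 6 of 76 higher in intercalated cells (median 0.09) and 16 of 77 in proximal tubule cells (0.31). Assembly factors outside the symbol rule were higher for 5 of 29 and 6 of 31, and genes of mitochondrial transcription for 1 of 9 and 1 of 11. By the same rule 15.9% of all nuclear-encoded genes were higher and 17.0% lower in intercalated cells, and 15.5% and 35.6% in proximal tubule cells. For the mitochondrial ribosome, assembly factors and mitochondrial transcription the shares of higher genes were thus little above these background shares or under them. Medians of all genes were -0.04 and -0.50.

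Of the fixed list of regulators of mitochondrial biogenesis, 2 of 5 measured were higher than in podocytes in intercalated cells (Ppargc1a and Esrra, median log2 ratio 0.65) and 4 of 7 in proximal tubule cells (Ppargc1a, Ppargc1b, Ppara and Esrra, 1.33), where Nrf1 was lower. Levels are given for 4 genes, chosen after their values were seen. Ppargc1a, a coactivator of respiratory chain genes, had 264, 323 and 285 UMIs per 1000000 in intercalated cells, 68.9, 55.9 and 37.0 in proximal tubule cells, 39.6, 50.1 and 43.3 in smooth muscle and renin cells and 7.74, 5.43 and 6.23 in podocytes. Esrrg, a nuclear receptor that works with it, had 100.1, 77.3 and 101 in intercalated, 20.0, 16.2 and 11.7 in proximal tubule cells and 0.801, 1.03 and 1.33 in podocytes. Tfam, which packages and transcribes mitochondrial DNA, differed less, with 61.5, 68.7 and 56.7, then 58.0, 43.1 and 46.8, then 40.1, 39.4 and 40.04 in the same 3 classes. Cycs, the gene of cytochrome c, which carries electrons from complex III to complex IV, had 1024, 693 and 1057 in intercalated cells, 999, 331 and 371 in proximal tubule cells and 169, 187 and 189 in podocytes. Among proximal tubule cells its male value stood far above those of the other 2 libraries, again in a class whose clusters differed between libraries.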

How the data were processed

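Cells from glomeruli of 3 mice were profiled by droplet 3′ RNA sequencing on a NextSeq500, per the labels. The deposited count matrices hold whole UMI counts per gene and barcode, made by the authors with Cell Ranger 6.1.2 and STAR 2.7.5a on mm10, per the submitters' processing notes. Depth was 44585342, 44942380 and 47522141 UMIs (male, female, female ERaKO), and intervals cover counting error only.

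Barcodes under 500 genes or over 25% mitochondrial-encoded UMIs were left out. Doublets were removed at a Scrublet score of 0.25 in each library (79, 60 and 48 barcodes), set after the automatic thresholds, which differed widely (93, 4 and 149 barcodes), had been seen. The libraries shared 4 to 8 barcodes in pairs. Counts were scaled to 10000, and 2000 variable genes (3 of them members), 30 principal components, 15 neighbours and Leiden clustering at resolution 1 (scanpy 1.11.5, leidenalg 0.10.2) gave 28 clusters of 8659 cells. Clusters were named from fixed markers, needing a mean score of at least 0.75 and a lead of 0.5, minima set after the clusters were seen.

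UMIs were summed by class and library. Mitochondrial-encoded genes were scaled to all UMIs and nuclear-encoded genes to those of nuclear-encoded genes. Log2 ratios used a pseudocount of 1 per 1000000, and exact conditional 95% intervals (Clopper-Pearson, scipy 1.17.1) used none. A gene was called at 1.5-fold with at least 100 summed UMIs, and medians used at least 20. Only the ratios, the 1.5-fold calls and the intervals were tested on simulated data, Poisson counts drawn from female podocyte levels. Filters, clustering, class naming and variation between mice were not simulated. Named genes were all mitochondrial-encoded members, the 12 nuclear-encoded members with the widest range over classes, the 5 highest and lowest ratios per comparison where past 1.5-fold (otherwise the extremes), 8 representatives and 5 isoform pairs. Alternatives changed the mitochondrial maximum, doublets, variable genes, resolution, cell assignment, averaging, denominator and scaling (TMM, edgeR 4.0.16). Members, lists and comparisons were chosen with earlier results of these data known.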

Additional observations from a re-analysis of the deposited data

Results flagged for a closer look

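In 4 instances tubule cells were opposite in sign to podocytes of the same pair of libraries and at least 0.25 (log2) apart from them, and none of these differences between classes was tested, since each group has 1 library. The median log2 ratio of nuclear-encoded members, male over female, was 0.24 in intercalated cells and 0.20 in proximal tubule cells against -0.08 in podocytes. In endothelial, mesangial and macrophage-class cells this median was also above 0, at 0.02, 0.07 and 0.12. The mitochondrial-encoded log2 ratio, male over female, was -0.38 in proximal tubule cells against 0.01 in podocytes, whose sign depended on the processing, with -0.05 in intercalated and -0.14 in parietal epithelial cells, and without a maximum on the mitochondrial share it was 0.09 in proximal tubule cells. The mitochondrial-encoded log2 ratio, female ERaKO over female, was -0.14 in proximal tubule cells against 0.26 in podocytes. The proximal tubule class drew on different clusters in the 3 libraries, and the part of this in its values was not tested.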

How the results depend on the processing

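With 1 mouse per group no ratio between libraries could be set against replicate error, and depth limits single members mainly in intercalated, macrophage-class and mesangial cells. No paired analysis between groups was possible because each group has 1 library. Class ratios over podocytes were taken within each library, and no result comes from a test. The podocyte mitochondrial-encoded log2 ratio, male over female, was 0.01 and became 0.080 without a maximum on the mitochondrial share, -0.028 with one of 10%, 0.0046 with each cell assigned by its own marker score, 0.034 as a mean over cells and -0.018 with TMM scaling, so its sign is not settled. The female ERaKO over female ratio, 0.26, was 0.605 without a maximum, 0.22 at 10%, 0.25 as a mean over cells and 0.23 with TMM scaling, and 0.27 without the podocyte cluster led by Cst12, an alternative chosen after seeing the data. The median of nuclear-encoded members in podocytes, male over female, went from -0.08 to -0.11 both as a mean over cells and with TMM scaling. The same median, female ERaKO over female, went from 0.03 to 0.025 without a maximum, 0.015 as a mean over cells, 0.017 per 1000000 of all UMIs and -0.0059 with TMM scaling. The ratio of proximal tubule cells over podocytes for mitochondrial-encoded genes, 1.30, was 2.14 without a maximum, -0.13 at 10%, where the cells that remain are by construction those low in these genes, and 1.55 with TMM scaling. For nuclear-encoded genes, 1.04, it was 0.86 at resolution 0.5 and 0.90 per 1000000 of all UMIs. In the other classes 145 of 156 alternative values of 28 results kept their sign. Of 236 alternative values of 42 single members, 236 kept their sign and 190 were still at least 1.5-fold. Except where stated, the cause was not tested.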

Other observations

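Cox6a2, the heart and muscle form of a complex IV subunit, was all but limited to a few cells of the macrophage class, with 10, 0 and 64 UMIs in 1, 0 and 6 cells and up to 22 UMIs in a cell. All 7 cells held UMIs of Siglech (6 to 20 a cell), Ccr9 (3 to 9) and Bst2 (13 to 31), markers of plasmacytoid dendritic cells, and none held Csf1r or C1qa. Of the other 209 cells of the class, 1 held Siglech, 2 Ccr9, 130 Bst2, 159 Csf1r and 16 C1qa. These markers were looked up after the 7 cells had been seen, so this is a description of 7 cells.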
